A study of Danio rerio with 29 samples.

Results

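The genes described here are 8 genes of myelin and of the glia that make it. They were taken from the 32520 genes of each count table by name alone, cldnk by its identifier and the others by their zebrafish symbol. The rule itself uses no measured value, but the set was chosen with earlier results of these data known. The structural genes are cldnk (ENSDARG00000042357), mbpa (ENSDARG00000036186), mbpb (ENSDARG00000089413) and mpz (ENSDARG00000038609). The enzyme gene ugt8 (ENSDARG00000037455) and the transcription factor genes olig1 (ENSDARG00000040948), olig2 (ENSDARG00000040946) and sox10 (ENSDARG00000077467) complete the set. All 8 passed the filter on low counts in both tissues.

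The series holds 29 polyadenylated RNA libraries of adult zebrafish: 3 wild-type (WT), 4 M and 4 S whole brains, and 6 bodies of each genotype from which the brain had been removed. M and S stand for fish homozygous for the CRISPR alleles of ccser1 labelled CCSER1_P471 and CCSER1_S48Y*, and WT for siblings from a cross of heterozygotes of a line that is not stated. Both lines were compared with the same WT libraries. Sex, clutch and pooling are not labelled, nor whether libraries came from different animals, and the p-values therefore cover only the variation among libraries, which may be technical.

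Myelin is the stack of glial membrane that wraps axons and speeds conduction. Oligodendrocytes make it in the brain and spinal cord, and Schwann cells make it in peripheral nerves. Its compact layers are held together by a few abundant proteins and are rich in galactolipids and cholesterol. Sox10 acts in both kinds of glia and in other neural crest derivatives such as pigment cells, whereas olig1 and olig2 belong to the oligodendrocyte lineage, and olig2 also to motor neuron progenitors. The body libraries kept the spinal cord and the peripheral nerves, so both kinds of glia could contribute there.

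Levels are CPM, each gene's count relative to the total count of its library, scaled between libraries with edgeR's TMM factors, and fold changes are log2 values with their standard errors (SE). Each adjusted p is from edgeR's quasi-likelihood F test with Benjamini-Hochberg adjustment over all genes tested in that comparison, and a gene was called below 0.05. The brain libraries held 7445865 to 9521735 counts and the body libraries 9450422 to 11674882. The transcript of ccser1 itself was lower in M and S bodies (log2 changes of -0.69 and -0.70, adjusted p = 0.0341 and 0.0299) and did not pass in brains (-0.17 and 0.19, adjusted p = 0.666 and 0.61). In the same body comparisons 33.1% (M) and 36.8% (S) of all genes were called. Ovary content of the bodies, described below, cannot be told apart from genotype there.

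Brains of the M line held less RNA of the structural myelin genes than WT brains. Of the 8 genes 6 were lower in M and none was higher, against 5.19% of the 18733 genes tested that were called lower in this comparison (10.1% called in either direction). The log2 changes of all 8 genes lay below 0, from -1.33 to -0.24, with a median of -0.75 where the median of all genes tested was 0.0076. In 6 of the 8 genes every M brain lay below every WT brain, which was so for 11% of all genes tested. From whole-brain RNA, fewer oligodendrocytes and less myelin RNA per oligodendrocyte cannot be told apart.

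The largest change among the 8 was in cldnk, the claudin of zebrafish myelin, a tight-junction protein of myelinating glia. WT brains 1, 2 and 3 held 142, 259 and 190 CPM, M brains 1 to 4 held 80.8, 81.7, 64.8 and 84.8 CPM, and S brains 1 to 4 held 140, 133, 146 and 145 CPM. All M brains lay far below all others, while the S brains lay together at the level of the lowest WT brain. The M level was 0.397 of the WT level, a log2 change of -1.33 (SE 0.16, adjusted p = 0.000922). M was also below S, by a log2 difference of -0.85 (SE 0.15, adjusted p = 0.00702). S itself differed from WT by -0.48, which did not pass (SE 0.16, adjusted p = 0.0872), although it did without WT brain 1 (adjusted p = 0.00507).

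Myelin basic protein zips the cytoplasmic faces of the membrane together, and zebrafish carry it as mbpa and mbpb. WT brains held 5272, 9067 and 6762 CPM of mbpa, M brains 3359, 3856, 3176 and 5118 CPM, and S brains 6460, 5470, 5715 and 5365 CPM. M brain 4 came close to the lowest WT brain without reaching it, and the S brains all lay within the WT range. The log2 difference of M from WT was -0.86 (SE 0.21, adjusted p = 0.0344). This call was lost when WT brain 2 or 3 or M brain 1, 2 or 3 was left out, with adjusted p from 0.0748 to 0.0906. It was also lost when edgeR was fitted to only the 2 groups compared (adjusted p = 0.0953).

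The paralog mbpb was steadier. WT brains held 179, 225 and 183 CPM, M brains 92.4, 89, 86.9 and 120 CPM, and S brains 156, 152, 161 and 157 CPM. The 3 groups did not overlap, with M lowest, S between and WT highest. M lay below WT by a log2 difference of -1.01 (SE 0.11, adjusted p = 7.9e-05) and below S by -0.69 (SE 0.10, adjusted p = 0.000942). The step from WT to S, of -0.32, did not pass (SE 0.11, adjusted p = 0.0672), but did without M brain 4 (adjusted p = 0.0151).

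Myelin protein zero, an adhesion protein that joins the outer faces of the membrane, belongs to peripheral myelin in mammals and to central myelin as well in fish. WT brains held 1573, 2333 and 1846 CPM of mpz, M brains 981, 1050, 916 and 1410 CPM, and S brains 1906, 1765, 1856 and 1821 CPM. The S brains fell within the WT range and the M brains below it, M brain 4 again being the highest of its group. M was lower than WT by a log2 difference of -0.82 (SE 0.16, adjusted p = 0.0118) and lower than S by -0.75 (SE 0.15, adjusted p = 0.0119), and S did not differ from WT by a called amount (-0.06, SE 0.16, adjusted p = 0.85).

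The gene ugt8 codes for the enzyme that makes galactosylceramide, the galactolipid that gives myelin much of its glycolipid content. WT brains held 56.8, 62.3 and 54.7 CPM, M brains 33.2, 32, 32.5 and 47 CPM, and S brains 70.3, 63.6, 56.7 and 62.4 CPM. M brains 1 to 3 were nearly alike and M brain 4 stood above them, still below every WT and S brain, and 3 of the 4 S brains lay above all WT brains. The log2 difference of M from WT was -0.68 (SE 0.13, adjusted p = 0.00444) and that of M from S was -0.80 (SE 0.12, adjusted p = 0.000919). S was above WT by 0.13, which did not pass (SE 0.13, adjusted p = 0.572).

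**Figure D1:**
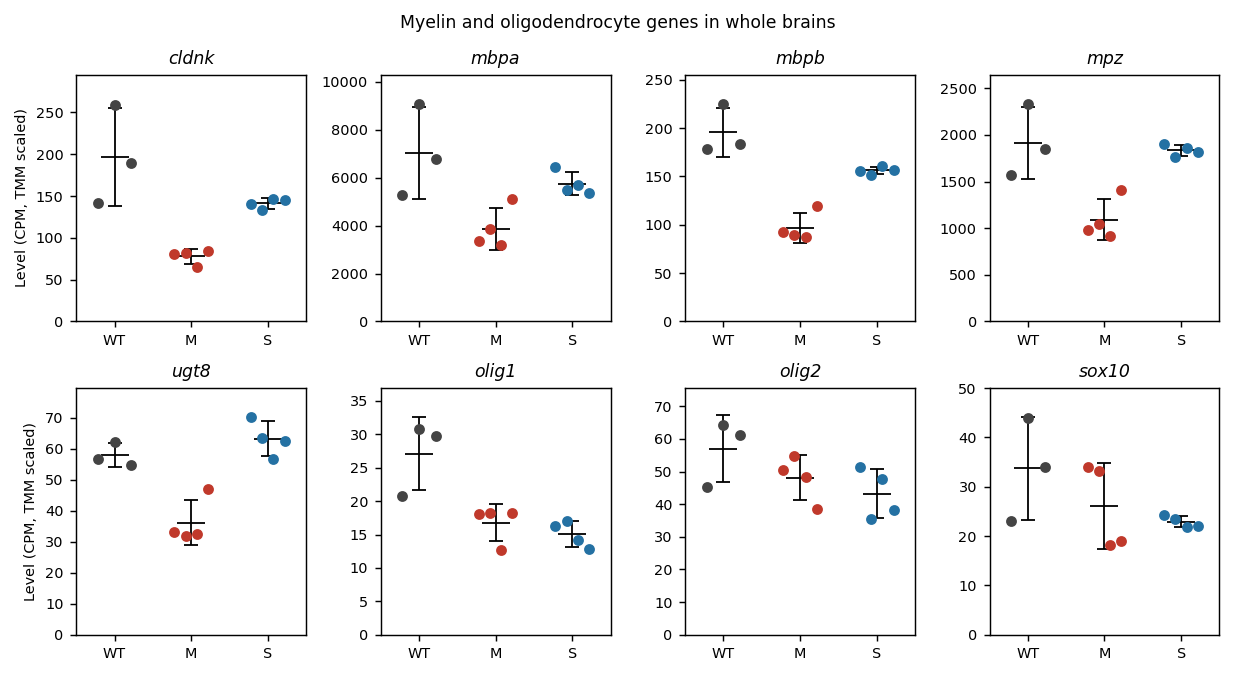
Level of each of the 8 genes in every whole-brain library (vertical axes in CPM after TMM scaling, each starting at 0); points are libraries of 3 WT, 4 M and 4 S brains, and bars give the mean and SD. The M brains lie below all WT brains in 6 genes, and the S brains lie below all WT brains in mbpb and olig1 and overlap with WT in the other 6.

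Of the 3 transcription factor genes olig1 was lower in both lines, and olig2 and sox10 were not called. WT brains held 20.8, 30.8 and 29.8 CPM of olig1, which promotes oligodendrocyte maturation. M brains held 18, 18.2, 12.7 and 18.2 CPM and S brains 16.3, 17, 14.1 and 12.9 CPM. Both lines lay wholly below WT, and they overlapped with one another. The log2 change was -0.69 in M (SE 0.17, adjusted p = 0.0184) and was -0.85 for S brains (SE 0.17, adjusted p = 0.0067), and M differed from S by 0.16, which did not pass (SE 0.16, adjusted p = 0.586). Without WT brain 2 or 3 the M call was lost (adjusted p = 0.0817 and 0.0762), while the S call held in each of the 11 fits with 1 brain left out.

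The lineage gene olig2, needed to specify oligodendrocyte precursors, ranged from 45.2 to 64.4 CPM in the 3 WT brains, from 38.6 to 54.8 CPM in the 4 M brains and from 35.4 to 51.3 CPM in the 4 S brains. Its groups overlapped throughout, and neither M (-0.24, SE 0.16, adjusted p = 0.361) nor S (-0.40, SE 0.16, adjusted p = 0.128) passed against WT; S did without WT brain 1 (adjusted p = 0.0446). For sox10, which drives the myelin genes in both kinds of glia, WT brains held 23.1, 44 and 34 CPM, M brains 33.9, 33.2, 18.2 and 19.1 CPM, and S brains 24.2, 23.4, 21.9 and 22.1 CPM. M brains were split into a pair at the WT level and a pair below it, and neither M (-0.37, SE 0.25, adjusted p = 0.397) nor S (-0.56, SE 0.25, adjusted p = 0.193) passed. The M brain low in olig2 was M brain 4, the one highest in cldnk, mbpa, mbpb, mpz and ugt8.

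Between S and WT brains only olig1 was called among the 8 genes, against 10.3% of all genes called in that comparison and 4.73% called lower. At an unadjusted p below 0.05 there were 4 genes, and DESeq2 called 3, all lower. These 3 were olig1, cldnk (-0.48, adjusted p = 0.0218) and mbpb (-0.32, adjusted p = 0.0431). With only the 2 groups compared, edgeR also called mbpb lower in S (adjusted p = 0.0263). Only mbpb and olig1 had every S brain below every WT brain, beside 11.6% of all genes. In the direct comparison of the lines 4 of the 8 genes were lower in M than in S and none was higher, where 10.1% of all genes were called and 5.41% were called lower. These were cldnk, mbpb, mpz and ugt8. In 5 genes, these and mbpa, all M brains lay below all S brains, beside 9.05% of all genes. For mbpa that difference was -0.57 (SE 0.19) and did not pass (adjusted p = 0.105), but did without M brain 4 (adjusted p = 0.0289) and with DESeq2 (adjusted p = 0.0435). For the structural genes and ugt8 the group mean was lowest in M. The S mean was below the WT mean in the structural genes and above it in ugt8. None of these differences of S from WT was called in edgeR's fit of all groups.

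The summed structural genes show how much of the brain's RNA this was. Together cldnk, mbpa, mbpb and mpz took 0.719%, 1.16% and 0.867% of the counts of WT brains 1, 2 and 3, and 0.462%, 0.514%, 0.436% and 0.673% of M brains 1 to 4. S brains took 0.858%, 0.747%, 0.784% and 0.744%. WT brains spread over a wider range than S brains, with WT brain 1 low and WT brain 2 high, and M brain 4 stood nearest to WT. Without WT brain 2 or WT brain 3 the count of genes lower in M was 4 of 8, without M brain 4 it was 6, and over all 11 such fits it ran from 4 to 6. The calls for cldnk, mbpb, mpz and ugt8 in M against WT held in every one of these fits.

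The shares of mbpa and mbpb within their pair overlapped between the 3 groups of brains. By share of the pair's counts, without regard to transcript length, mbpa made up 97.2% ± 0.473 of the mbpa and mbpb counts in WT brains (SD, n = 3), 97.5% ± 0.231 in M (n = 4) and 97.4% ± 0.173 in S (n = 4). Reads that match both copies of a pair could have been assigned in ways that the sources used here do not state, so the split within a pair is less certain than its sum.

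Other cell types were checked in the same brains. Markers of photoreceptors and the pineal gland summed to between 21 and 32.7 CPM in WT, 306 and 506 CPM in M and 262 and 485 CPM in S, and 20 of the 20 markers tested were higher in each line. Markers of radial glia and astroglia summed to 11530 to 13670 CPM in WT, 10360 to 11350 CPM in M and 11800 to 12480 CPM in S, so that M lay below WT in this list too (4 of 18 tested lower, 1 higher). In S 3 of these 18 were lower and none was higher. Neuron markers summed to 14440 to 16030 CPM in WT, 13880 to 14720 CPM in M and 13970 to 14760 CPM in S. Of 27 tested, 4 were lower and 2 higher in M, and 4 lower and 1 higher in S. Of all genes tested, 5.19% were called lower in M and 4.73% in S, and 10.1% and 10.3% in either direction. Microglia markers overlapped, at 802 to 1153 CPM in WT, 668 to 1271 CPM in M and 773 to 1105 CPM in S. Markers of skeletal muscle reached 1842 CPM and those of epidermis 4083 CPM in S brain 3, and at most 118 and 674 CPM in the other brains; the 8 genes in that brain lay within or next to the range of the other S brains. The part of these lists in the myelin results was not tested.

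Other genes were drawn from lists of myelin proteins, myelin lipid synthesis, the axon-glia junction, lineage regulators, oligodendrocyte precursors and Schwann cell regulators, 167 of them tested in brains. In M against WT 9 were higher and 17 lower, together 15.6% beside 10.1% of all genes. In S against WT 17 were higher and 2 lower (11.4% beside 10.3%), and in M against S 8 were higher and 19 lower (16.2% beside 10.1%).

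Of 29 other myelin protein genes tested in brains, 6 were lower and 2 higher in M than in WT. The lower ones included cd59a and cd59b, which encode complement-regulating membrane proteins, CLDN19, a claudin of Schwann cells in mammals, and the tetraspanin TSPAN2. cd59a fell by 1.13 on the log2 scale (adjusted p = 0.00586), cd59b by 0.84 (SE 0.13, adjusted p = 0.00113), CLDN19 by 0.64 (SE 0.15) and TSPAN2 by 0.35 (SE 0.06). The higher ones were GPM6B, a membrane protein gene that neurons also express, at 0.67 (adjusted p = 0.000516), and prx at 1.51 (SE 0.24, adjusted p = 0.00156), from 7.33 ± 1.69 CPM in WT (SD, n = 3) to 21 ± 6.04 CPM in M (n = 4). Periaxin, the product of prx, is a scaffold protein of Schwann cells in mammals, and prx was higher in M than in S as well (1.64, SE 0.22, adjusted p = 0.000442). For mag, which binds axon and glial membrane, M differed from WT by -0.22 (adjusted p = 0.122) and for cnp, an enzyme of non-compact myelin, by -0.10 (adjusted p = 0.63), neither of which passed. In S against WT 1 of the 29 was higher and 1 lower, both also called in M. GPM6B was at 0.79 (SE 0.09, adjusted p = 0.000146) and cd59b at -0.55 (SE 0.13, adjusted p = 0.0135) in S.

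Genes that make the lipids of myelin were lower or not called in M. Of 24 tested, 6 were lower in M than in WT and none was higher (2 higher at an unadjusted p below 0.05). GAL3ST1, which adds sulphate to galactosylceramide, went from 15.6 ± 4.05 CPM in WT (SD, n = 3) to 6.49 ± 1.05 CPM in M (n = 4), a log2 change of -1.26 (SE 0.20, adjusted p = 0.00183). ELOVL1, which lengthens very long fatty acids, was at -0.84 (SE 0.13, adjusted p = 0.00183), and FA2H, which hydroxylates the fatty acids of galactolipids, at -1.04 (SE 0.19, adjusted p = 0.00718). ELOVL7 at -1.38 (SE 0.22), SPTLC2 at -0.64 (SE 0.11) and degs1 at -0.57 (SE 0.13), of fatty acid elongation and of ceramide synthesis, completed the 6. In S brains 1 of the 24, CERS2, was higher and none lower (1 lower at an unadjusted p below 0.05).

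Cholesterol synthesis genes were lower in M in larger number, 14 of 27 tested against WT and 12 of 27 against S, with none higher. Of all genes tested, 5.19% were called lower in M than in WT and 5.41% lower in M than in S. In S against WT edgeR called none of the 27, and none had an unadjusted p below 0.05. SQLE, the squalene epoxidase, went from 28.4 ± 5.4 CPM in WT (SD, n = 3) to 6.94 ± 2.25 CPM in M (n = 4), a log2 change of -2.03 (SE 0.24, adjusted p = 0.000393). MSMO1, a sterol demethylase, was at -1.31 (SE 0.19, adjusted p = 0.00176) and FDPS, the farnesyl diphosphate synthase, at -0.99 (SE 0.15, adjusted p = 0.00119). The whole list summed to 897 to 1015 CPM in WT brains, 517 to 706 CPM in M and 799 to 974.7 CPM in S, with no overlap between M and the others. These enzymes work in all cell types.

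At the axon-glia junction 4 of 38 genes were lower and 5 higher in M than in WT. Of all genes tested, 5.19% were called lower and 4.93% higher in that comparison. The lower ones included the connexin gene GJB1 at -1.06 (SE 0.17, adjusted p = 0.00205). LINGO1, an inhibitory receptor component of neurons and oligodendrocytes, was lower in M than in WT (-0.66, SE 0.14) and higher in S (0.51, SE 0.14), and M and S differed by -1.18 (SE 0.13, adjusted p = 0.00013). The higher ones in M were adhesion and axon initial segment genes that neurons express, NRCAM at 0.62 (SE 0.10), l1camb at 0.53 (SE 0.11), CADM1 at 0.57 (SE 0.15), ANK3 at 0.30 (SE 0.07) and SCN8A at 0.28 (SE 0.06). In S 10 of the 38 were higher than in WT and none lower, where 10.3% of all genes were called in either direction. The 10 were led by CADM2 (0.78, SE 0.13, adjusted p = 0.00196) and KCNA1 (0.89, SE 0.16, adjusted p = 0.00351), a potassium channel of the zone beside the node. Among the 10 were also l1camb (0.59, SE 0.11), CADM1 (0.76, SE 0.15) and ANK3 (0.33, SE 0.07), which were higher in M too.

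Regulators and precursor markers gave few calls in M against WT. Of 33 lineage regulators 1 was higher in M than in WT, SOX9 at 0.88 (SE 0.13, adjusted p = 0.00108), which specifies glia and is also a gene of astroglia, and none was lower, nor at an unadjusted p below 0.05. Among 14 precursor genes edgeR called none in M against WT, where 1 was higher and 1 lower at an unadjusted p below 0.05 and 4.93% of all genes tested were called higher and 5.19% lower. PDGFRA, the growth factor receptor of precursors, was at 0.51 (adjusted p = 0.349), the proteoglycan gene CSPG4 at -0.09 and MYRF, the factor that switches on myelin genes, at 0.25 (adjusted p = 0.242). In S brains the matrix genes bcan (0.42, SE 0.07, adjusted p = 0.0028) and TNR (0.40, SE 0.08, adjusted p = 0.00964) were higher. Of 29 Schwann cell regulators the co-repressor gene NAB2 was lower in M (-0.89, SE 0.14, adjusted p = 0.00134) and the receptor gene ADAM22 higher (0.32, SE 0.07, adjusted p = 0.0113). Between M and S there were more calls, with 3 lineage regulators higher and 1 lower in M of 33, 1 precursor gene lower of 14, and 2 Schwann cell regulators higher and 3 lower of 29, where 10.1% of all genes were called. The higher ones in M were SOX9 (0.54, SE 0.12, adjusted p = 0.00991), HES1 (0.71, SE 0.16, adjusted p = 0.0126), ID2 (0.40, SE 0.12, adjusted p = 0.0484), SOX2 (0.54, SE 0.11, adjusted p = 0.00848) and NGFR (0.47, SE 0.11, adjusted p = 0.0134). SOX2 and HES1 are also genes of neural stem cells and radial glia. In S against WT 2 of the 33 lineage regulators were higher and 1 lower, HES1 (-0.57, SE 0.17, adjusted p = 0.0482). HES1 stood at a mean of 44 CPM in WT, 48.7 CPM in M and 29.7 CPM in S.

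**Figure D2:**
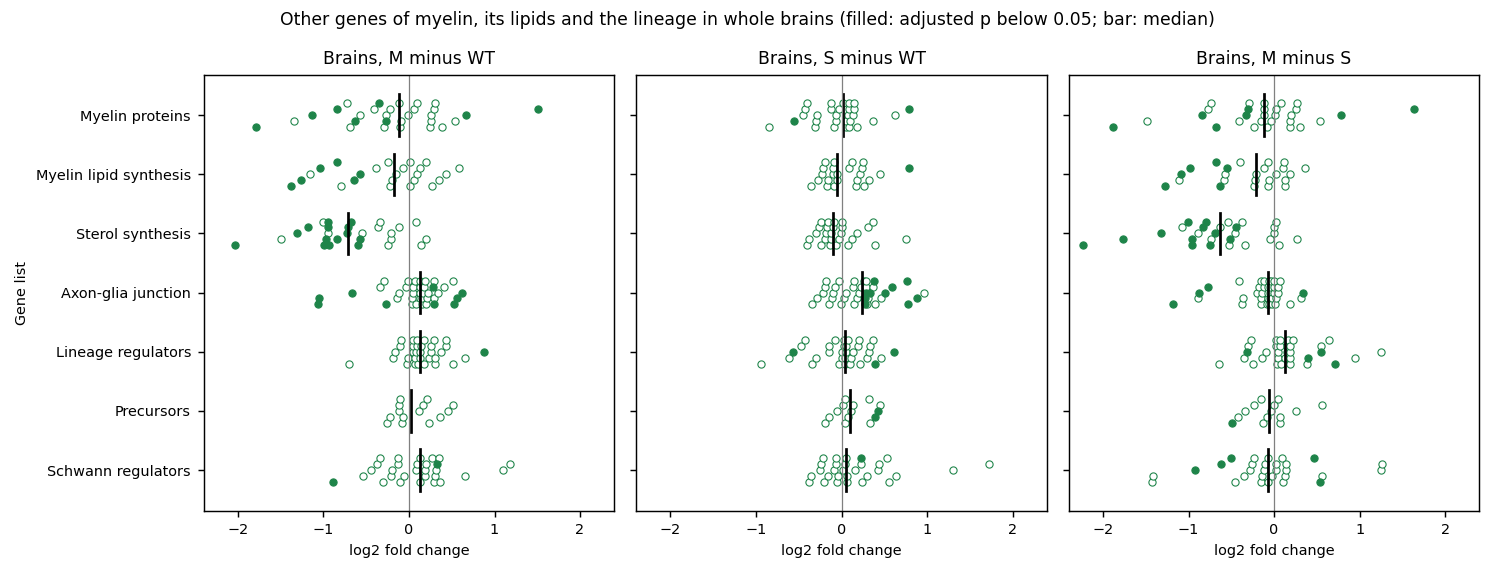
Log2 fold change of each tested gene of 7 lists (rows) in 3 comparisons of whole brains (panels); filled points passed edgeR's test and the vertical bar is the list's median. In M against WT and in M against S the filled points of lipid and sterol synthesis all lie below 0, and in S against WT the axon-glia junction holds 10 filled points, all above 0.

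The 10 genes with levels most like the mean of the 4 structural genes over the 11 brains, among 12470 genes with a mean of at least 5 CPM, included, in order of Pearson's r, cd59a (0.991), stxbp6l (0.983), PRELID3B (0.978), ELOVL1 (0.974), CSRP1 (0.972), GJB1 (0.969), SLC25A33 (0.968), ARG2 (0.962) and FA2H (0.96). Each of these was lower in M than in WT. That direction follows from picking them by likeness over the same brains, so it adds no separate result. Of these, cd59a, ELOVL1, GJB1 and FA2H are the genes given above. The r values describe 11 libraries that share the contrast between groups. With the group means removed r ran from 0.809 for ARG2 to 0.955 for stxbp6l among the 10 genes, and was 0.949 for cd59a. Among themselves the 4 structural genes had pairwise r from 0.931 to 0.963 over brains, and from 0.693 to 0.976 with the group means removed.

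In bodies the 8 genes gave few differences between the lines. Of the 8 only sox10 was called in M against WT, higher, where 33.1% of all 20240 genes tested were called and 12.4% called higher. Again only sox10 was called in S against WT, also higher, where 36.8% were called and 15.7% called higher. Between M and S edgeR called none of the 8 and DESeq2 0 as well, where edgeR called 8.11% of all genes and 2 of the 8 had an unadjusted p below 0.05. The median log2 change of the 8 genes was -0.0050 in M and -0.0048 in S against WT, beside 0.05 and 0.02 for all genes tested.

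WT bodies held 4.52 to 9.79 CPM of sox10 (median 7.57), M bodies 6.74 to 12.7 CPM (median 11.3) and S bodies 10.3 to 13.9 CPM (median 12.3). All 6 S bodies lay above all WT bodies, as in 4.86% of all genes, and 4 of 6 M bodies did. The log2 change was 0.71 in S (SE 0.18, adjusted p = 0.00603) and 0.49 in M (SE 0.18, adjusted p = 0.0476). The S call held in each of 18 fits with 1 body left out, and the M call was lost in 10 of them. With the ovary markers as a covariate sox10 was at 0.35 in S (adjusted p = 0.633) and 0.06 in M (adjusted p = 0.983). That fit called 278 of all 20240 genes in S and 53 in M, against 7445 and 6696 without the covariate, so the loss was not particular to sox10. Without the 5 bodies described below sox10 was at 0.54 (adjusted p = 0.0547) and 0.38 (adjusted p = 0.209).

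The structural genes of bodies overlapped between the lines. For mbpa, WT bodies ran from 257 to 450 CPM (median 281), M bodies from 216 to 378 CPM (median 298) and S bodies from 245 to 384 CPM (median 312), with log2 differences from WT of -0.13 (SE 0.16) in M and -0.03 (SE 0.16) in S. For mpz, which in fish belongs to central as well as peripheral myelin, WT bodies ran from 113 to 185 CPM (median 142), M bodies from 81.8 to 168 CPM (median 123) and S bodies from 106 to 157 CPM (median 124). Its differences of -0.28 in M (adjusted p = 0.175) and -0.20 in S did not pass. The ranges of the 3 groups lay over one another in both genes.

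The ranges of the other structural genes overlapped as well. WT, M and S bodies had medians of 144, 141 and 140 CPM of mbpb. For cldnk the medians were 20.7 CPM in WT, 27.48 in M and 21 in S, and 5 of 6 M bodies lay above all S bodies, with a difference of M from S of 0.30 that did not pass (SE 0.14, adjusted p = 0.214). Against WT cldnk in M bodies was at 0.28 (adjusted p = 0.121), which passed without WT body 3 (adjusted p = 0.0337), WT body 6 (0.0469) or M body 5 (0.0451). For ugt8 the medians were 37.3 CPM in WT, 39.2 in M and 36.2 in S, with changes of 0.04 and -0.10.

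The oligodendrocyte genes were scarce in bodies. For olig1, WT bodies ran from 0.0922 to 1.88 CPM (median 0.471), M bodies from 0.302 to 2.68 CPM (median 1.35) and S bodies from 0.847 to 1.9 CPM (median 1.49). Its change of 0.83 in M (SE 0.53, adjusted p = 0.23) and that of 0.91 in S (adjusted p = 0.181) did not pass and rest on few reads; S did without WT body 3 (adjusted p = 0.0465). For olig2, WT bodies ran from 1.34 to 3.81 CPM, M bodies from 0.503 to 3.16 CPM and S bodies from 2.48 to 3.67 CPM. The difference of M from S, -0.78, did not pass (adjusted p = 0.158), with 5 of 6 M bodies below all S bodies.

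**Figure D3:**
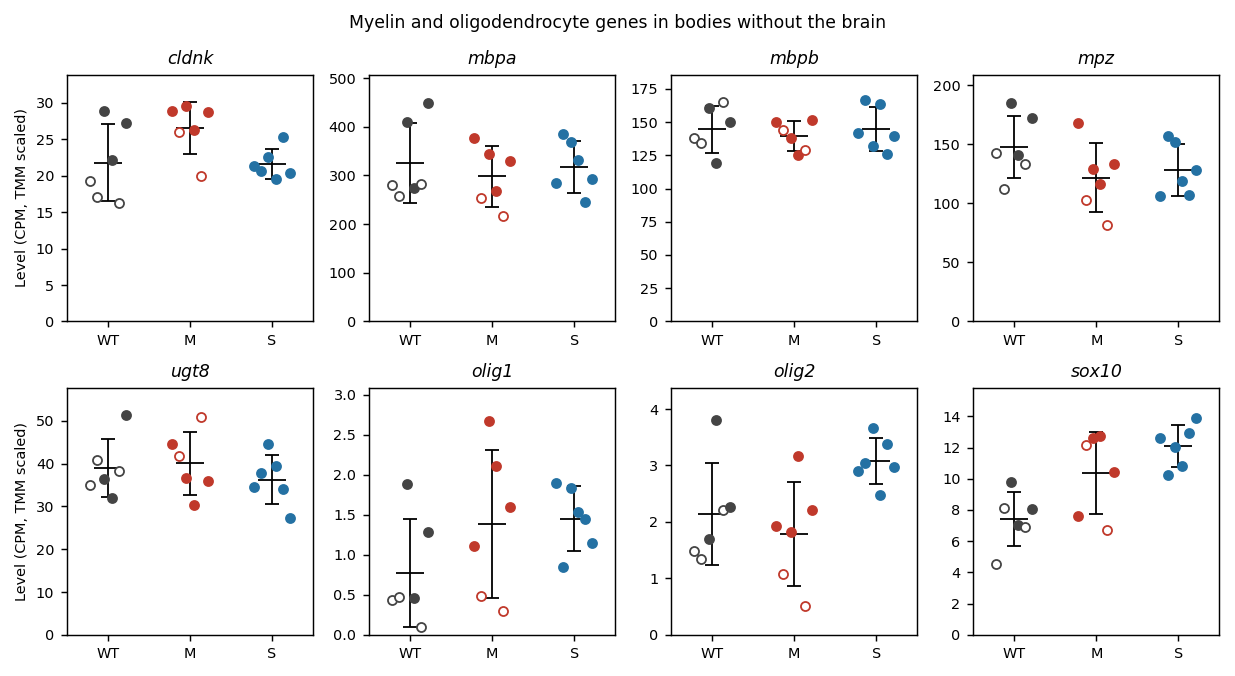
Level of each of the 8 genes in every body library (vertical axes in CPM after TMM scaling, each starting at 0), 6 each of WT, M and S, with mean and SD; open points are the 5 bodies in which pituitary markers summed to under 5 CPM. The groups overlap in 7 genes, and in sox10 all S bodies lie above all WT bodies.

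Marker sums of other tissues differed among the bodies. Pituitary markers summed to under 5 CPM in WT bodies 1, 2 and 5 and M bodies 2 and 5, at 0.704 to 1.37 CPM, and to 14.8 to 31.5 CPM in the other 13. Those 5 bodies also had the lowest neuron marker sums, 285 to 522 CPM against 598 to 1382 CPM in the others, and no S body was among them. M body 5 was the lowest M body in cldnk, mbpa, mpz, olig1, olig2 and sox10. In ugt8 it was the highest M body, at 51 CPM, and in mbpb M body 4 was the lowest (125 CPM, M body 5 at 128.9). Spinal cord markers summed to 64.3 to 113 CPM in WT, 121 to 140 CPM in M and 123 to 143 CPM in S, with both lines above all WT bodies. Markers of brain regions summed to 45.6 to 137 CPM in WT, 48.3 to 196 CPM in M and 109 to 185 CPM in S. The 5 bodies low in pituitary markers were again the lowest, at 45.6 to 56 CPM against 96.1 to 196 CPM in the others. Of 25 brain region markers tested, 5 were higher than WT in M bodies and 10 in S bodies, and none was lower. Of all genes tested, 12.4% were called higher in M bodies and 15.7% in S bodies. The part of these marker lists in the body levels and in the differences between tissues was not tested. Pigment cell markers overlapped, at 111 to 140 CPM in WT, 117 to 164 CPM in M and 116 to 143 CPM in S. Ovary markers summed to 1400 to 8158 CPM in WT, 31.9 to 188 CPM in M and 51.9 to 1083 CPM in S. All M and S bodies lay below all WT bodies in that sum, so ovary content and genotype cannot be told apart. For the same reason the covariate fit given above cannot decide their part in the sox10 result.

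With the neuron marker score as a covariate, mpz was lower than in WT in both lines, at -0.47 for M bodies (SE 0.13, adjusted p = 0.00989) and -0.46 for S bodies (SE 0.14, adjusted p = 0.0219), and cldnk was lower in S (-0.28, adjusted p = 0.0489). None of these passed without it. Sox10 no longer passed (M at 0.35, adjusted p = 0.151; S at 0.50, adjusted p = 0.0668). Between the lines cldnk was higher in M by 0.38 without those 5 bodies (SE 0.11, adjusted p = 0.0455). These fits were added after the data had been seen.

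Among the other genes of the 6 lists, 172 were tested in bodies. In M against WT 34 were higher and 18 lower (30.2% beside 33.1% of all genes). In S against WT 49 were higher and 17 lower (38.4% beside 36.8%), and in M against S 5 and 5 (5.81% beside 8.11%). Of all genes, 12.4% were called higher in M and 15.7% in S against WT. The median log2 change of the list genes was 0.31 in M and 0.34 in S, beside 0.05 and 0.02 for all genes. In the myelin protein list prx, which was higher in M brains, was also higher in M bodies than in WT (0.82, SE 0.18, adjusted p = 0.00184) and than in S (0.76, SE 0.18, adjusted p = 0.0116), at 292 ± 50.3 CPM in M, 165 ± 55.2 in WT and 173 ± 29 in S (SD, n = 6 each). cnp was lower in M bodies (-1.21, SE 0.21, adjusted p = 0.00025), from 223 ± 87.3 to 96.1 ± 11.7 CPM. Ovary content cannot be told apart from genotype in these bodies, and its part in the cnp change was not tested. PDGFRA, which fibroblasts also express, was higher in M (0.70, SE 0.12, adjusted p = 0.000268) and S bodies (0.94, SE 0.12, adjusted p = 3.1e-05).

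Of the other Schwann cell genes in bodies, 7 of 28 regulators were higher and 1 lower in M, and 8 were higher and 1 lower in S. Taken in either direction, both are smaller shares than the 33.1% and 36.8% of all genes called in these comparisons. Taken as genes called higher, both are larger shares than the 12.4% and 15.7% of all genes. Whether the list stands apart from all genes was not tested. ERBB2, a receptor subunit for the axonal growth signal neuregulin, was higher in M (0.49, SE 0.12, adjusted p = 0.00446), and ADGRG6, the receptor needed to start Schwann cell myelination, was higher in S (0.48, SE 0.11, adjusted p = 0.00222). DAG1, the laminin receptor dystroglycan, was lower in M than in WT (-0.38, SE 0.07, adjusted p = 0.000667) and than in S (-0.27, SE 0.07). Sterol synthesis in bodies had 5 genes lower and 1 higher of 27 in M and 17 lower and none higher in S. Taken in either direction, the share in M was below the 33.1% of all genes called. The share in S was above the 36.8% of all genes called. Of the 21 ovary markers tested, 20 were lower in M and 18 in S bodies, and their part in the sterol counts was not tested.

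The genes whose body levels were most like the mean of the structural genes, over 18 bodies and 12425 genes, were stxbp6l (r = 0.9), TRPV6 (0.841), SLC14A2 (0.827), zwi (0.804), tnni1c (0.793), fam83e (0.791), s100a11 (0.784), lin7c (0.781), krt98 (0.756) and YWHAB (0.756). Only stxbp6l was among the 10 in both tissues. Pairwise r among the 4 structural genes ran from -0.05 to 0.874 in bodies.

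Whether the change in M differed between tissues was tested as an interaction over all 29 libraries and 22442 genes. It passed for 3 of the 8 genes, all with a change that was lower in brain than in body, where 12.3% of all genes were called and 3.64% in this direction. The brain change was more negative by 1.59 for cldnk (SE 0.21, adjusted p = 7.29e-05), 0.92 for mbpb (SE 0.17, adjusted p = 0.00109) and 0.69 for ugt8 (SE 0.23, adjusted p = 0.0498). The cldnk and mbpb calls held in all 29 fits with 1 library left out. No ovary covariate was fitted for the interaction in M or in S, and in bodies ovary content and genotype cannot be told apart. The ugt8 call was lost in 22 of 29 fits with 1 library left out and without the 5 bodies low in pituitary markers (0.53, adjusted p = 0.197). For mbpa (0.69, adjusted p = 0.0814) and mpz (0.49, adjusted p = 0.173) the difference between tissues did not pass. The mbpa difference did pass without WT brain 1, M brain 4 or WT body 3 or 6 (adjusted p from 0.0254 to 0.0499). For olig1 it was 1.49 (adjusted p = 0.0925), called without WT body 3 or 6 or M body 5, and for sox10 0.82 (adjusted p = 0.0768), called without WT brain 1, M brain 1, WT body 3 or M body 5.

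In S the interaction passed for sox10 alone, where 9.17% of all genes were called and 2.75% in this direction. Its change was higher in bodies than in brains by 1.20 (SE 0.31, adjusted p = 0.0151). Without WT brain 2 it was lost (adjusted p = 0.0747) and without the 5 bodies (1.075, adjusted p = 0.051). For olig1 the difference of 1.70 (SE 0.58) did not pass (adjusted p = 0.0616), but did without WT body 3 or 6, M body 5 or S body 2 (adjusted p from 0.0114 to 0.0472).

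**Figure D4:**
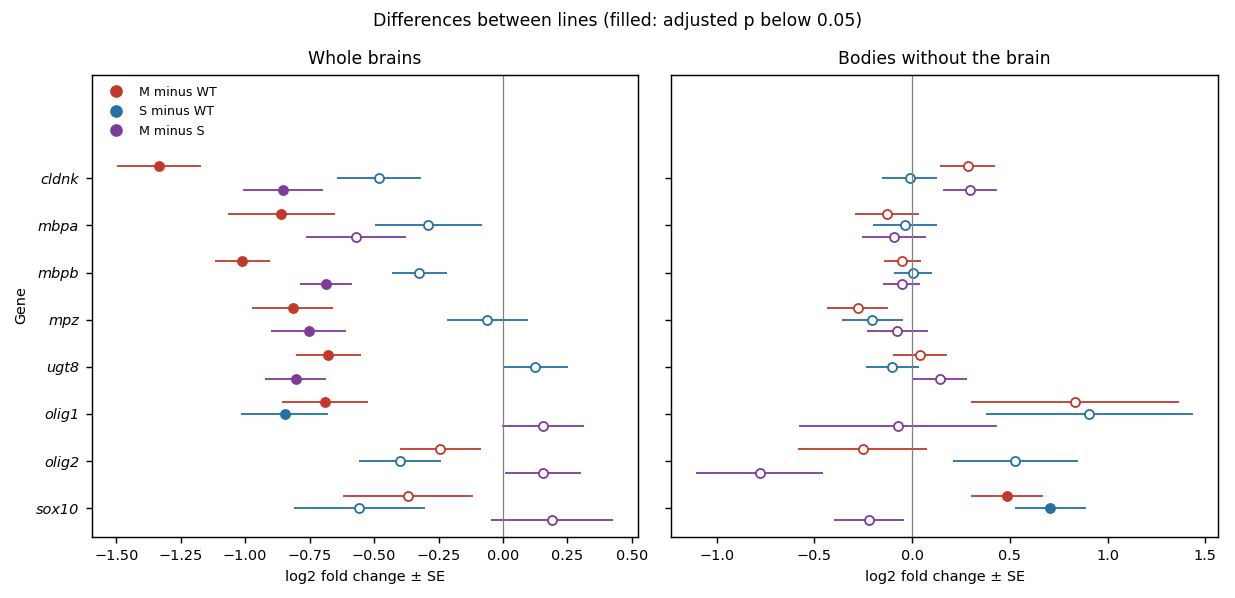
Log2 fold change with SE of each of the 8 genes in 3 comparisons, in whole brains on the left and bodies on the right; filled points passed edgeR's test. In brains 6 genes are filled in M against WT and 4 in M against S, and olig1 in S against WT, all below 0, and in bodies only sox10 is filled, above 0 in both lines.

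Between the tissues of WT fish, on one scaling over all libraries, 6 of the 8 genes were higher in brain, where 79.7% of all genes were called and 37.9% called higher. Tissue and any difference in preparation cannot be told apart, since each tissue has its own table. The largest difference was in olig1, at 22 ± 4.34 CPM in brain (SD, n = 3) and 0.879 ± 0.747 CPM in body (n = 6), a log2 difference of 4.63 (SE 0.42, adjusted p = 8.89e-11). Next came olig2 (4.23, SE 0.26), mbpa (3.93, SE 0.19), mpz (3.19, SE 0.17) and cldnk (2.67, SE 0.15). The difference was smaller for sox10 (1.67, SE 0.22).

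The 2 genes that did not differ between tissues by a called amount were mbpb and ugt8. mbpb stood at 159 ± 19.8 CPM in brain and 168 ± 22.9 CPM in body (-0.08, SE 0.12, adjusted p = 0.578), and ugt8 at 47.13 ± 2.98 and 45.2 ± 8.07 CPM (0.06, SE 0.17, adjusted p = 0.749). The share of mbpa in the counts of its pair was 68.7% ± 4.34 in WT bodies (SD, n = 6), 67.6% ± 3.75 in M and 68.5% ± 2.87 in S, below the 97.2% of WT brains, with ranges that overlapped across lines.

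**Figure D5:**
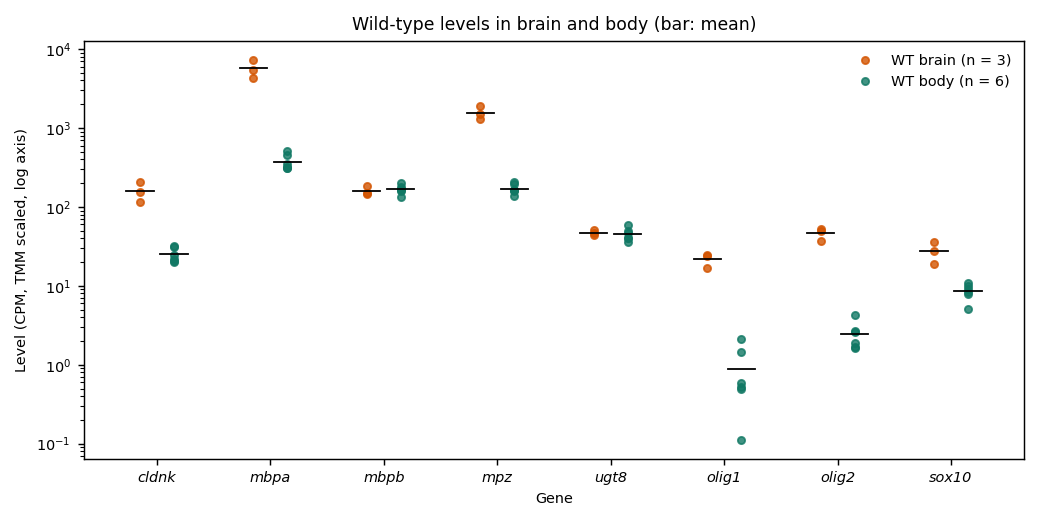
Levels of the 8 genes in 3 WT brains and 6 WT bodies on one scaling (log axis, CPM); points are libraries and bars are means. Brain lies above body in 6 genes, most in olig1 and olig2, and the tissues overlap in mbpb and ugt8.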

How the data were processed

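The authors deposited whole-number counts per gene with no normalization, as tested on the files. Polyadenylated RNA had been read in pairs of 150 bp, per the labels' protocols. STAR and the builds GRCz11 and GRCz10 appear in the submitters' processing notes. How reads were counted (program, annotation, strand) is not given in the sources used here, so overlapping or antisense genes cannot be told apart.

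In R 4.3.3, edgeR 4.0.16 (TMM factors, default low-count filter, robust quasi-likelihood F test) was fitted to all 3 groups of a tissue, and to all 29 libraries for tissue differences. SE is the absolute log2 change over the square root of F. Likeness used log2 CPM with a prior count of 1. Chi-square tests of counts found no duplicate library (statistic per degree of freedom at least 4.5). The tests were checked on simulated counts.

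The genes and all lists were chosen with earlier results of these data known. Of the 10 genes taken by name, 8 are described; other genes and the results that need them are not reported here, and likeness was measured against the 4 structural genes described. Where 2 zebrafish genes share a human symbol, the value is of the one with the smaller p. Other genes named are called list members, at most 8 per direction and comparison by smallest p, and the 10 most alike in level per tissue. GJB1, LINGO1, CADM1, SCN8A, CLDN19, TSPAN2, mag, cnp, CERS2, PDGFRA, CSPG4, MYRF, FA2H, ELOVL7, SPTLC2 and degs1 were also named where the rule did not pick them, after their values were seen. Alternatives were DESeq2 1.42.0, RLE factors, other filters, no robust fit, only the groups compared, a replicate block, each library left out, and for bodies ovary and neuron scores as covariates or leaving out 5 bodies.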

Additional observations from a re-analysis of the deposited data

Results flagged for a closer look

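Of 40 groups of libraries screened for 1 library far from the rest of its group, 5 held one, and chance alone gives about 1 in 20. In M brain 4, mbpb stood at 119.7 CPM where the other M brains held 86.85 to 92.43, and ugt8 at 47 CPM where the others held 31.99 to 33.22. In M brain 3, olig1 stood at 12.67 CPM against 18.04 to 18.2. In M body 5, cldnk stood at 19.92 CPM against 25.98 to 29.53, and in WT body 4, olig2 stood at 3.812 CPM against 1.337 to 2.265.

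The change from WT differed between tissues by edgeR's test of the difference itself in 4 cases, given as the log2 change in bodies minus that in brains. In M it was 1.587 for cldnk, 0.9226 for mbpb and 0.6858 for ugt8. In S it was 1.2 for sox10.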

How the results depend on the processing

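No called change of any of the 8 genes reversed its sign under the alternatives run. The number of the 8 genes called in S brains was 3 with DESeq2 and 2 with only the groups compared, against 1. In bodies it was 0 for M without a filter, with only the groups compared, with the ovary score, and without the 5 bodies low in pituitary markers. For S bodies it was 0 with the ovary score and without the 5 bodies, and 2 with the neuron score, both lower. For M against S in bodies it was 1 with the neuron score and 1 without the 5 bodies, against 0. The M difference between tissues was called in 6 genes with DESeq2, and the S difference in 3 with DESeq2 and 0 without the 5 bodies. The causes were not tested.

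Leaving out 1 library, the counts ran from 4 to 6 (M brains), 1 to 3 (S brains), 4 to 5 (M against S brains), 0 to 2 (M bodies), 1 to 2 (S bodies), 0 to 0 (M against S bodies), 2 to 5 (M between tissues), 0 to 2 (S between tissues) and 6 to 6 (WT tissues).

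The labels do not say that replicate numbers pair the libraries. Residuals of like-numbered brains had r from -0.263 to 0.128 (median -0.0138, 2 of 10 pairs over 0.1), and of bodies from -0.298 to 0.461 (median 0.135, 10 of 18 pairs over 0.1). Pairs with unlike numbers were not measured beside them, so these values cannot decide whether the numbers pair the libraries. With the number as a block, 5 genes were called in M brains (mbpa lost, adjusted p = 0.0626), 1 in S brains and 4 in M against S, and 1, 1 and 0 in bodies. In bodies olig1 had raw counts of 1 to 25 per library and olig2 of 5 to 42.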
